A study of Homo sapiens with 2 samples.

Results

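Caveolins and the proteins that build and tether caveolae were described gene by gene after transfection with an siRNA against IFITM1 in HT-29, a long-established line of human colorectal adenocarcinoma cells. The members were CAV1, CAV2, CAV3, CAVIN1, CAVIN2, CAVIN3, EHD2, PACSIN2, PACSIN3 and DNM2, that is 10 of the 19775 genes that the array named through a probe set of 1 gene. They are known caveola components, and the set was chosen by the high log2 ratios of CAV1 and CAV2 on these same arrays, so their values are given as a description and without a test. All probe sets annotated to 1 of these genes were taken, 22 in all. One culture received a small interfering RNA (siRNA) against firefly luciferase (siLuc), the baseline, and one received an siRNA against human IFITM1 (siIFITM1). Both were harvested for total RNA at 72 h, and each was read on 1 Affymetrix array, so there were no replicates and differences are described by size alone. All log2 ratios are siIFITM1 over siLuc. The labels do not state whether 1 siRNA or several were used against IFITM1, and both groups are cultures of a single cell line.

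Caveolae are small flask-shaped pits of the plasma membrane, rich in cholesterol and sphingolipids. Caveolins insert into the inner leaflet as a hairpin and form oligomers, with CAV1 and CAV2 assembling together in most tissues and CAV3 replacing CAV1 in muscle. Cavins form a coat on the cytoplasmic side, EHD2 holds the neck at the surface, PACSIN proteins bend the membrane and the GTPase DNM2 takes part in scission. Caveolae are plentiful in endothelium, fat and muscle, and many colon cancer lines carry few of them.

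CAV2 and CAV1 lie next to each other on chromosome 7 in RefSeq's human gene table, and both were higher with siIFITM1. The 250 bases before the first annotated start of each gene are shown because these were the members with the highest ratios and the only pair of neighbours. The sequences are RefSeq's for assembly GRCh38.p14, plus strand, 5′ to 3′, at chr7:116499488-116499737 for CAV2 and chr7:116524759-116525008 for CAV1. Capitals mark GC boxes, the letters GGGCGG on either strand, the core of the element read by Sp1-type factors.
CAV2: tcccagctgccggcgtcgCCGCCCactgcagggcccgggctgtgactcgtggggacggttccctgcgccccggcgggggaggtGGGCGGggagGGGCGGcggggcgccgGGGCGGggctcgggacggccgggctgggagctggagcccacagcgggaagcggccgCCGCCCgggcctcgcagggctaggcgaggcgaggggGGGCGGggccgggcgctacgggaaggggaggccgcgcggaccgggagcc
CAV1: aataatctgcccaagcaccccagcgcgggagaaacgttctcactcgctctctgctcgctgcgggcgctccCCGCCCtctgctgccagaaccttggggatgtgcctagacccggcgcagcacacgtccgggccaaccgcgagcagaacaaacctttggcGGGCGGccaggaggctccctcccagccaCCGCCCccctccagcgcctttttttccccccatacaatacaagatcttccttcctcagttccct
The CAV2 window held 6 GC boxes and the CAV1 window 3. Of 34788 distinct windows of the same length in the table, 42.6% held at least 1, 13.9% held at least 3 and 2.19% held at least 6. The GC content was 83.2% for CAV2 and 63.6% for CAV1, against a median of 58% over all windows. Searched on both strands, neither window held the letters GGAATG (a TEAD core, in 11.9% of all windows), TGANTCA (AP-1, 6.59%), CCAAT (32.02%), TATAAA (10.8%), GTAAACA (forkhead, 2.98%) or TCACNCCAC (a sterol element, 0.882%). A match is a run of letters and not a measured site. The table lists further starts, 2 windows for CAV2 and 3 for CAV1 in all, and the arrays do not show which start was used. It held 7 of the 10 members, all but CAVIN1, CAVIN3 and PACSIN3.

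The values of the whole array set the scale. The targeted gene IFITM1 had a signal of 640 with siLuc and 237 with siIFITM1, a log2 ratio of -1.43. This value rests on 1 probe set with an ID ending for shared probes, so transcripts of its close relatives may contribute to it. The 18 hybridisation control probe sets, which read RNA added in fixed amounts, had ratios from -0.13 to 0.05. A gene was represented by its brightest probe set and passed the filter at a mean signal of 57.4, the median over all probe sets, which 12225 genes did. The 7793 genes at or above a mean signal of 393 are called brighter. The log2 ratios of probe sets of the same gene differed with an SD of 0.193 among brighter probe sets and of 0.496 among dimmer ones past the filter, and these SDs serve below as yardsticks of measurement spread. They contain no variation between cultures.

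Of 12 markers of colon epithelium 10 were brighter genes and above the floor on both arrays, and the 12 had a summed signal of 179267 in siLuc and 182389 in siIFITM1. CDX1 and CDX2, transcription factors of the intestine, were below the floor on both arrays, CDX1 with signals of 35.6 and 37.9. Of the cell types that carry many caveolae, none had a marker among the brighter genes. Endothelial markers passed the filter in 2 of 8 cases and summed to 331 in siLuc and 278 in siIFITM1. Markers of fibroblasts and smooth muscle passed in 5 of 10 cases and summed to 861 and 880. Of these 5, LUM was higher with siIFITM1 (from 132 to 386, ratio 1.54) and the other 4 were lower, COL1A1 at -0.49, DCN at -0.51, ACTA2 at -0.91 and VIM at -0.84. Each of the 5 passed through a single probe set, and their other probe sets were below the filter. All of these single probe sets but that of ACTA2 carried the ID ending for shared probes. Fat cell markers passed in 1 of 5 cases, with sums of 302 and 352, and skeletal muscle markers in 1 of 6, with sums of 248 and 214. The list of blood cell markers passed in 3 of the 5 measured, with sums of 712 and 593. It includes HBB, the beta-globin gene of red cells. Without HBB 2 of 4 leukocyte markers passed, with sums of 619 and 452. Of these sums, 306 and 177 came from 1 probe set of CD79A, whose other probe set was below the floor at 19.4 and 19.1. No marker was listed at 0. Their part in the caveolin values was not tested. In RNA from a whole culture, a higher level per cell and more cells that carry the transcript cannot be told apart.

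Of the 10 members, 7 passed the filter and 6 of these were brighter genes. Among the 7, CAV2 was at least 2-fold higher and 0 were at least 2-fold lower. Over all genes past the filter, 1.01% were at least 2-fold higher and 2.01% at least 2-fold lower. Ratios above 0 were found in 5 of the 7 members (3 with the mean over each gene's probe sets), against 47.4% of all genes past the filter. The members' median was 0.13 against -0.02 for all genes. These counts and the median include CAV1 and CAV2, which were chosen for their high ratios, so they are no test. Among brighter genes 0.18% were at least 2-fold higher, 0.0898% at least 2-fold lower and 50.5% above 0. The 7 members were therefore not uniformly higher. CAV1, CAV2 and CAVIN1 lay above 0 at every probe set past the filter, with the lowest ratio, 0.18, in CAVIN1. The probe sets of EHD2, PACSIN2, PACSIN3 and DNM2 past the filter ran from -0.48 to 0.13. The lowest CAVIN1 ratio was thus close to the highest of EHD2 and DNM2, and no sharp split is claimed.

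**Figure D1:**
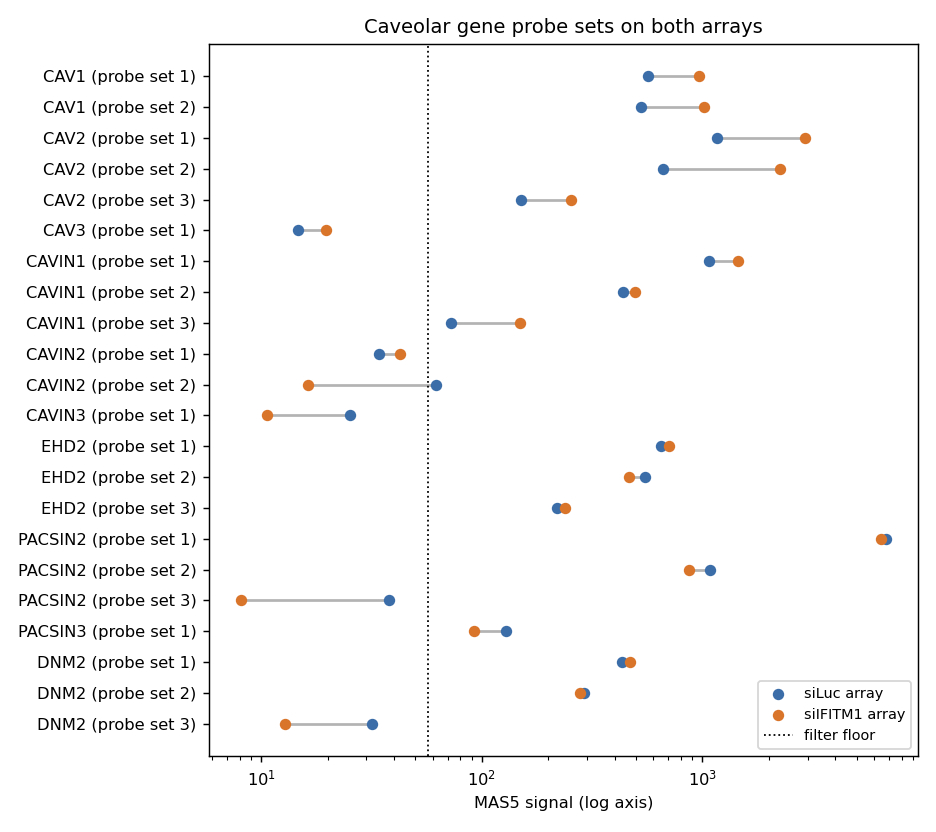
MAS5 signal (log axis) of each of the 22 caveolar probe sets on the siLuc array (blue) and the siIFITM1 array (orange), 1 array each, with the filter floor of 57.4 as a dotted line. Probe sets of a gene are numbered from the brightest, and the widest gaps above the floor belong to the first pair of CAV2 probe sets, from 1171 to 2918 and from 666 to 2254.

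CAV2 encodes caveolin-2, which needs caveolin-1 to reach the plasma membrane in most cells. Its brightest probe set had a signal of 1171 in siLuc and 2918 in siIFITM1, a 2.49-fold difference and a log2 ratio of 1.32. The next probe set, the only CAV2 probe set whose ID ending does not mark shared probes, went from 666 to 2254, a 3.39-fold difference (log2 ratio 1.76). Its dimmest probe set went from 151 to 253, with a ratio of 0.75. All 3 probe sets were thus higher on the siIFITM1 array. The first pair stood at 6.83 and 9.12 times the yardstick SD for their brightness, and the dimmest at 1.51 times the wider SD for dim probe sets. Their ratios spanned 1.01, so the direction was shared but the size of the difference was not settled by these probe sets.

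Among the 7793 brighter genes, 4 including CAV2 had a ratio of 1.32 or more. Of the 500 genes nearest to CAV2 in signal, 0 had a ratio as high, and the central 95% of these genes ran from -0.44 to 0.51. Of the 6087 genes with several probe sets past the filter, 13 including CAV2 had every one of them at or above 0.75, the lowest ratio of CAV2. These counts describe the 2 arrays and are no test, since CAV2 was chosen with its ratio known.

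CAV1 encodes caveolin-1, the structural protein without which caveolae do not form outside muscle. Its brightest probe set had a signal of 565 in siLuc and 965 in siIFITM1, a 1.71-fold difference and a log2 ratio of 0.77. Its other probe set went from 529 to 1013, a 1.91-fold difference (log2 ratio 0.94). Both were higher on the siIFITM1 array and neither reached 2-fold. The ratios differed from each other by 0.17, within the yardstick SD of 0.193, and lay at 4.0 and 4.85 times that SD from 0. Among brighter genes 55 including CAV1 had a ratio as high as its 0.77, and so did 5 of the 500 genes nearest in signal. These values are no test, since CAV1 was chosen with its ratio known. Both CAV1 probe sets lay above the lowest CAV2 probe set and below the other two. Whether the ratios of the 2 genes differ was not tested.

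CAV3, the caveolin of heart and skeletal muscle, was read by 1 probe set below the floor on both arrays, with signals of 14.7 and 19.7. No fold is given for it.

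CAVIN1, also known as PTRF, is the cavin required for caveola assembly. Its brightest probe set went from 1070 to 1445, a log2 ratio of 0.43 or 2.24 times the yardstick SD. The second went from 439 to 497, with a ratio of 0.18 that lay within 1 yardstick SD of 0. The third and dimmest went from 72.2 to 149, with a ratio of 1.04 at 2.11 times the wider SD for dim probe sets. All 3 were higher on the siIFITM1 array, by amounts that spanned 0.87. Among the 500 genes nearest in signal 41 had a ratio as high as 0.43. CAV1 and CAV2 were chosen for their ratios, so their counts and this one are not compared.

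The other cavins gave little signal. CAVIN2 (SDPR), which helps to shape caveolae, was read by a probe set with signals of 34.2 and 42.5, both below the floor. Its second probe set went from 62.1, just above the floor, to 16.3. With the lower value raised to the floor, that is a 1.08-fold difference, so the pair of CAVIN2 probe sets gave no usable direction. CAVIN3 (PRKCDBP), a cavin that binds protein kinase C delta, had signals of 25.4 and 10.6, both below the floor.

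**Figure D2:**
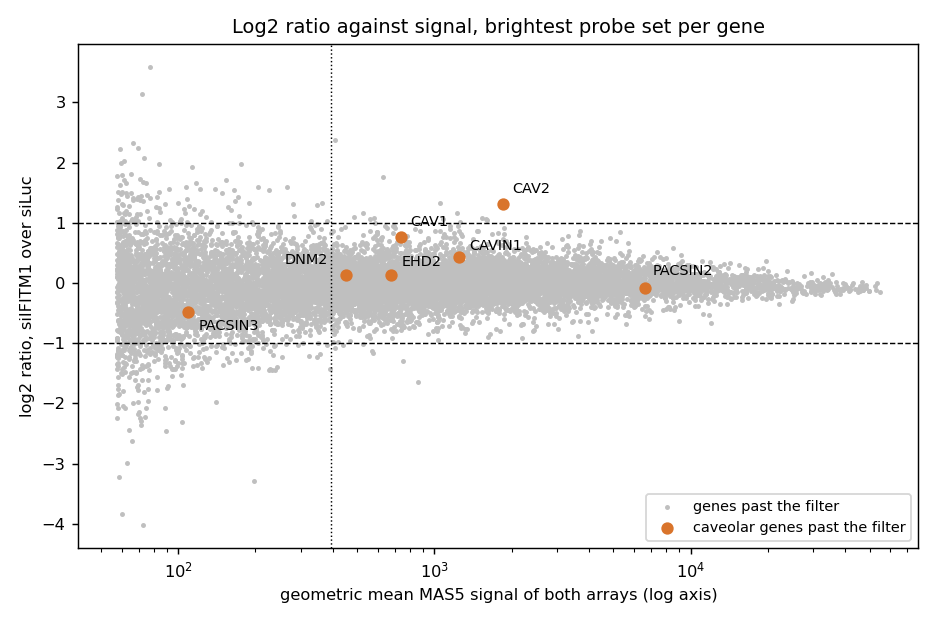
Log2 ratio of siIFITM1 over siLuc against the geometric mean signal of both arrays (log axis) for the 12225 genes past the filter (grey, brightest probe set per gene), with the 7 caveolar genes that passed in orange. Dashed lines mark a 2-fold difference and the dotted line the signal of 393 above which genes are called brighter; CAV2 at 1.32 lies above the cloud of its signal level and CAV1 at 0.77 at its upper edge.

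The genes of the caveola neck were close to equal on both arrays. EHD2 encodes an ATPase that forms a ring at the neck and keeps caveolae at the surface. Its 3 probe sets went from 647 to 708, from 550 to 463 and from 220 to 237. The ratios of 0.13, -0.25 and 0.11 ran in both directions, with the largest at 1.28 times the yardstick SD. DNM2 encodes dynamin-2, a GTPase that pinches off both clathrin-coated and caveolar vesicles. Its probe sets went from 430 to 471 (ratio 0.13) and from 291 to 279 (ratio -0.06), both within 1 yardstick SD of 0. The dimmest DNM2 probe set was below the floor on both arrays, at 31.9 and 12.8.

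PACSIN2 encodes an F-BAR protein that bends the membrane at caveolae. Both of its probe sets past the filter were below 0. The brightest went from 6815 to 6464 (ratio -0.08) and the second from 1079 to 874 (ratio -0.30), or -0.395 and -1.58 times the yardstick SD. Its dimmest probe set was below the floor on both arrays, with signals of 38.0 and 8.14. PACSIN3, the family member known mainly from muscle, was read by 1 dim probe set that went from 129 to 92.6. Its ratio of -0.48 lay within the SD of 0.496 between dim probe sets of the same gene.

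Below the filter, 4 of the 6 member probe sets were at least 2-fold lower by their plain ratio and 0 were 2-fold higher. Over all 18067 probe sets of 1 gene below the filter, 25.9% were at least 2-fold lower and 22.4% at least 2-fold higher. At such levels signal and background could not be separated. Of the 16 member probe sets past the filter, 3 were at least 2-fold higher and 0 were 2-fold lower. Among all 23024 probe sets of 1 gene past the filter, 1.34% were at least 2-fold higher and 2.06% at least 2-fold lower. The 3 were the CAV2 probe sets at 1.32 and 1.76 and the dimmest CAVIN1 probe set at 1.04. CAV2 was chosen with its ratio known, so this count is no test.

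**Figure D3:**
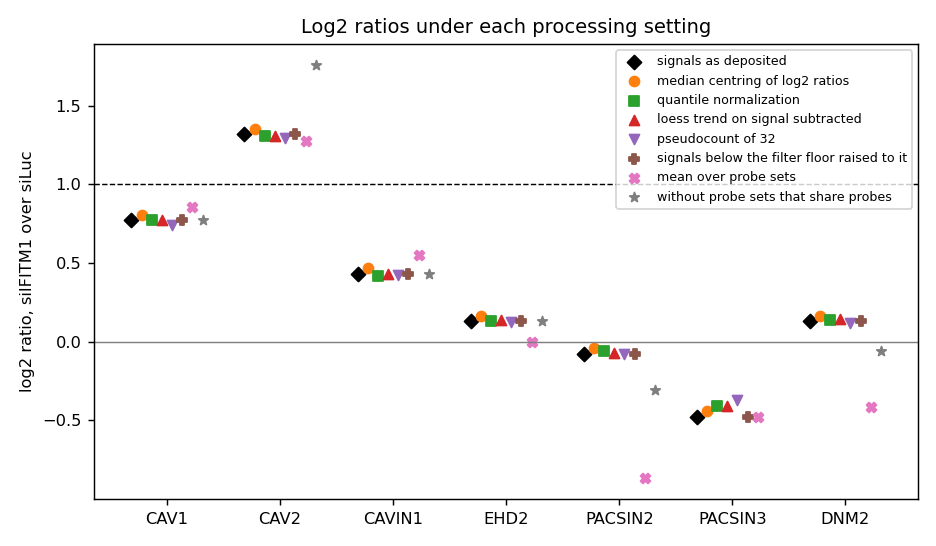
Log2 ratio of siIFITM1 over siLuc for the 7 caveolar genes past the filter, with signals as deposited (black diamonds) and under 7 other processing settings (coloured symbols); the dashed line marks 2-fold. CAV2 stays between 1.27 and 1.76 and CAV1 between 0.74 and 0.85, while EHD2 and DNM2 fall on both sides of 0; PACSIN3 has no value without probe sets that share probes.

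The genes on either side of CAV2 and CAV1 on chromosome 7 were measured for comparison. Of 10 listed genes of this stretch, 9 were measured and 5 passed the filter, with 3 above 0, 2 below 0 and 0 that were 2-fold apart. Their median ratio was 0.07, against -0.02 over all genes past the filter. Of all genes past the filter 47.4% were above 0, 1.01% at least 2-fold higher and 2.01% at least 2-fold lower. TES and MET are the nearest protein-coding genes on the CAV2 and the CAV1 side and were named for that place. TES, a gene for a focal adhesion protein, went from 5196 to 5866 (ratio 0.18), and its second probe set from 3208 to 3089 (ratio -0.05). MET, the receptor for hepatocyte growth factor, went from 6687 to 8242 (ratio 0.30), and its other probe sets ran from -0.08 to 0.17. CAPZA2, an actin capping protein gene beyond MET, went from 7331 to 6636 (ratio -0.14), and FOXP2, a transcription factor gene, from 73.1 to 76.9 (ratio 0.07). CFTR, the chloride channel gene, was the lowest of the 5 and was named after its values were seen. It went from 1309 to 1004 (ratio -0.38), with its other probe sets past the filter at -0.61 and 0.0066. The ratios of CAV1 and CAV2 were higher than those of all 5. CAV1 and CAV2 were chosen for their high ratios, so this comparison is no test.

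Relatives of the caveola proteins and scaffolds of other membrane rafts had no common direction. Of 18 measured genes 13 passed the filter, 6 above 0 and 7 below it, with 0 that were 2-fold apart. Over all genes past the filter 47.4% were above 0, 1.01% at least 2-fold higher and 2.01% at least 2-fold lower. The median of the list was -0.07, and 0.0504 without probe sets that share probes. EHD1, a paralog of EHD2 that acts in endosome recycling, went from 1037 to 1429 (ratio 0.46). All 5 of its probe sets were above 0, from 0.23 to 1.69, and each carried the ID ending for shared probes, so paralogs may contribute to it. FYN, a Src-family kinase anchored in rafts, went from 1230 to 923 (ratio -0.41). All 3 of its probe sets past the filter were below 0, down to -0.70, and each carried the ID ending for shared probes. DNM1, the dynamin known mainly from neurons, went from 1748 to 1360 (ratio -0.36) on a probe set with the ID ending for shared probes. Its other probe set past the filter was dim and went from 102 to 49.9 (ratio -1.03), below the floor. DNM3 went from 77.9 to 143 (ratio 0.88), a dim gene with 1 probe set past the filter.

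Clathrin-mediated endocytosis, the other main coated route into the cell, was covered by 26 measured genes. Of these 24 passed the filter, with 16 above 0, 8 below 0 and 0 that were 2-fold apart. Their median was 0.09, and -0.0187 with the mean over each gene's probe sets. The shares over all genes past the filter were 47.4% above 0, 1.01% at least 2-fold higher and 2.01% at least 2-fold lower. SYNJ1, a phosphoinositide phosphatase that uncoats vesicles, went from 156 to 268 (ratio 0.78), but its second probe set was at 0.03. FCHO2, an early organiser of the clathrin pit, went from 996 to 1185 (ratio 0.25). SH3GL1, which encodes an endophilin, went from 512 to 602 (ratio 0.23). AP2A2, a subunit of the AP-2 adaptor, went from 2367 to 2050 (ratio -0.21), with all 4 probe sets below 0.

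YAP and TEAD activate genes of adhesion and cytoskeleton, and CAV1 is counted among their targets in some cells. Of 26 measured targets other than the caveolins 20 passed the filter, 14 above 0 and 6 below it, with a median of 0.25. Of the 20, 1 was at least 2-fold higher and 0 were 2-fold lower, beside 1.01% and 2.01% of all genes past the filter. Ratios above 0 were found in 47.4% of all genes past the filter. That gene was F3, tissue factor, which went from 341 to 1153 (ratio 1.76) on a single probe set. CCN1, a secreted matrix protein gene, went from 777 to 1416 (ratio 0.87), and its 2 probe sets differed by little, at 0.85 and 0.87. TGFB2, a transforming growth factor gene, went from 155 to 272 (ratio 0.81). FJX1, a gene for a secreted regulator of planar polarity, went from 321 to 245 (ratio -0.39). CCN2 and ANKRD1, also on the list, were named after their values were seen. CCN2 went from 1585 to 1512 (ratio -0.07), and ANKRD1 was below the floor on both arrays, at 32.8 and 29.8. The list was put together with the ratios of F3, CCN1 and TGFB2 known, so its median is no independent evidence of a direction.

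**Figure D4:**
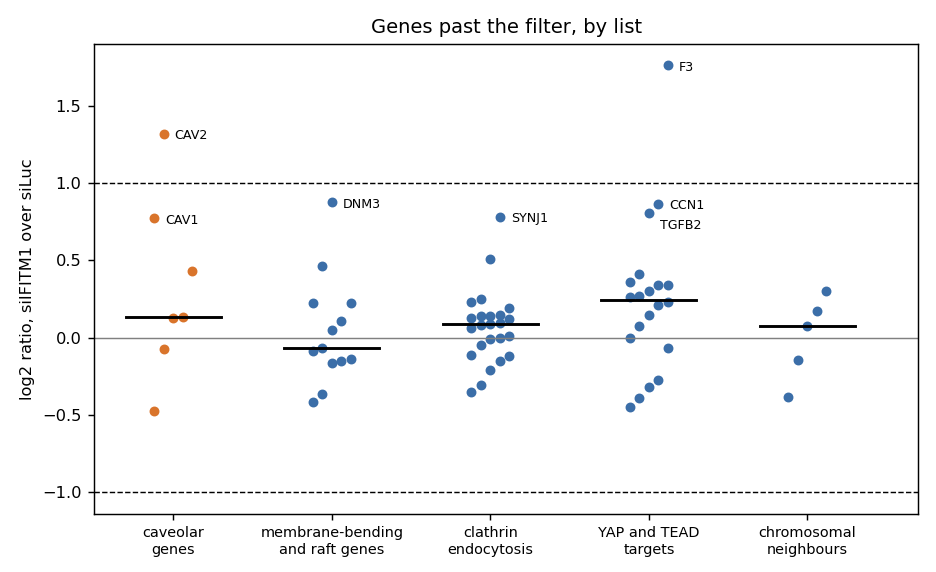
Log2 ratio of siIFITM1 over siLuc for the genes past the filter in the caveolar set (orange) and in 4 other lists (blue); each point is 1 gene by its brightest probe set, black bars are medians and dashed lines mark 2-fold. The medians are 0.13 for the caveolar genes, -0.07 for membrane-bending and raft genes, 0.09 for clathrin endocytosis, 0.25 for YAP and TEAD targets and 0.07 for chromosomal neighbours.

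The genes most like CAV2 and CAV1 were sought by the median ratio over probe sets past the filter, among genes with several such probe sets of one sign. This likeness rests on 2 arrays and therefore on a single difference. Nearest to the CAV2 median of 1.32 were GRIN1 (1.25), DHX34 (1.39), PPARGC1B (1.22), RPS6KA2 (1.22) and TMOD1 (1.42), each with 2 probe sets. None of these 5 was a brighter gene, and in DHX34 and TMOD1 the pair of probe sets ran from 0.61 to 2.17 and from 0.55 to 2.29. Nearest to the CAV1 median of 0.85 were IL20RA (0.85), TMEM41A (0.86), CCN1 (0.86), DCBLD1 (0.87) and HYCC2 (0.88). TMEM41A went from 1415 to 2486, with probe sets at 0.81 and 0.90, and the 4 probe sets of HYCC2 ran from 0.37 to 1.54.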

How the data were processed

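Total RNA of 2 HT-29 cultures was amplified to biotin-labelled cRNA and read on 1 array each, per the labels' protocols. The deposited intensities are MAS5 signals per probe set, per the submitters' processing notes, and the version and the scaling are not given in the sources used here. With 2% of probe sets removed at each end, the mean signal was 500.1 on both arrays, so the authors' values share a common level.

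Signals were taken to log2 as deposited. The probe table named 1 gene for 41091 of 54613 probe sets that are not controls, and 41037 were matched by Entrez identifier to RefSeq's table for GRCh38.p14. The filter and the brighter class are the 50th and 75th percentiles of mean log2 signal. With 1 array per siRNA no test was made, and the number of arrays limits the precision. The members, lists and naming rule were chosen with earlier results of these data known. Named were all members, up to 4 genes per list (those 2-fold apart, then the largest ratios whose probe sets past the filter shared a sign), and the 5 genes nearest to CAV2 and to CAV1. TES, MET, CFTR, CCN2 and ANKRD1 were named outside this rule. FLNA, EPN2, REPS1, NUAK2 and ST7 had no probe set of 1 gene. The 9 alternatives were median centring, quantile normalization, subtraction of a loess trend (span 0.3), a pseudocount of 32, signals raised to the floor, the mean over probe sets, omission of probe sets ending in _x_at or _s_at, no filter and the 75th percentile filter. The calculation was tested on simulated arrays. Software was Python 3.11.15, pandas 2.3.3, statsmodels 0.14.6, numpy 2.4.6 and matplotlib 3.10.9. MAS5 detection calls did not enter.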

Additional observations from a re-analysis of the deposited data

How the results depend on the processing

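CAV1 (0.74 to 0.85), CAV2 (1.27 to 1.76) and CAVIN1 (0.42 to 0.55) were above 0 under all 7 alternatives that give gene ratios. Without probe sets that share probes, CAV2 was at 1.76, PACSIN2 at -0.30 and DNM2 at -0.06, against 0.13 for DNM2 in the main setting. The median of membrane-bending and raft genes was then at 0.0504, 4 of 6 members were above 0, and CAV3 and PACSIN3 had no value. The mean over probe sets, which takes in those below the filter, gave -0.81 for CAVIN2, -0.87 for PACSIN2, -0.42 for DNM2, -0.0187 for the clathrin median, 3 of 7 members above 0, and 276 genes 2-fold higher and 438 lower. EHD2 was at -0.0018 there and above 0 otherwise. A pseudocount of 32 gave -0.43 for CAVIN3, against -1.26 without it, and 55 genes higher and 89 lower. Raised to the floor, 81 genes were higher, and CAV3, CAVIN2 and CAVIN3 had no value. With no filter, 2 members (CAV2 and CAVIN3) were 2-fold apart, and 1778 genes were higher and 2172 lower. With the 75th percentile filter 14 were higher and 7 lower. The main counts were 124 and 246. Beyond the numbers of genes and probe sets that each setting takes in, the causes were not tested. No paired analysis was possible because there is 1 array per siRNA. Mean signals below the filter limit CAV3, CAVIN2 and CAVIN3. PACSIN3 is limited by its 1 dim probe set, which has the ID ending for shared probes.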
